A study of Mus musculus with 12 samples.

Results

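Lower motor neurons of mice homozygous for Q331K in TDP-43 were compared with those of wild type mice across all genes. The comparison took every library that the labels give to these genotypes, 8 of the 12 in the series, with 4 from Q331K/Q331K mice and 4 from +/+ mice. All mice were C57BL/6 and aged 5 months, and the neurons were dissected from lumbar spinal cord by laser capture. The mutation is a knock-in, so both copies of Tardbp carry it in homozygotes and it is expressed from the gene's own place in the genome, with no transgene. The other 4 libraries came from Q331K/+ mice. They entered the estimate of the spread between libraries, and their values are given only side by side, because any comparison of them would use the same wild type libraries. Whether the libraries of a genotype are separate animals is not stated in the labels, and p-values therefore describe variation among libraries, which may be technical.

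TDP-43 is an RNA-binding protein of the nucleus that binds UG-rich stretches of RNA and takes part in splicing, in the stability of transcripts and in the control of its own RNA. In amyotrophic lateral sclerosis (ALS) it leaves the nucleus of motor neurons and gathers in the cytoplasm, and many of its mutations in patients fall in the C-terminal low-complexity domain. Lower motor neurons are the cells whose axons leave the spinal cord for muscle, and their loss causes the paralysis of the disease. Q331K replaces a glutamine by a lysine in the C-terminal domain.

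Tardbp RNA stood at 62.3, 78.7, 76.1 and 77.8 CPM (counts per 1e6, scaled between libraries) in wild type replicates 1 to 4, and at 78.8, 75.0, 74.8 and 73.8 CPM in homozygous replicates 1 to 4. The homozygous values lay inside the wild type range, except that replicate 1 was just above it. The log2 difference, homozygous minus wild type as everywhere below, was 0.04 (SE 0.09, 95% interval -0.17 to 0.24, exact permutation p = 0.914 over 4 against 4 libraries). Its sign turned without wild type replicate 1 (-0.03) and in limma-voom with library quality weights. The level of the RNA is no check of the genotype, because the knock-in alters a codon and not the number of copies. Tardbp overlaps Masp2 on the other strand, and the library kits keep no strand.

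The 8 libraries were alike in depth, with 60886825 to 74788288 counts in homozygotes and 62908120 to 83504446 in wild type. Genes with a count numbered 16228 to 16765 and 16633 to 17002 (exact permutation p = 0.286), and mitochondrially encoded genes took 0.735% to 0.968% and 0.657% to 1.13% of counts (exact permutation p = 0.343). Xist had 0 counts in all 8 libraries and Ddx3y, on the Y chromosome, was at 29.1 to 43.9 CPM, so the 8 libraries were alike in these sex-linked genes. The defining motor neuron genes were present in each library: Chat, which makes acetylcholine, was at 63.5 to 241 CPM in wild type and 135 to 329 CPM in homozygotes.

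The cell content of homozygous replicate 1 was unlike that of the other 7 libraries compared. The summed level of the motor neuron markers was 52610 CPM there. It was 25420 to 28140 CPM in homozygous replicates 2 to 4 and 21380 to 35180 CPM in wild type. Neurofilament genes made up most of each of these sums. Of the other markers, some were highest in homozygous replicate 1, such as Chat (329 CPM), and some lowest, such as Lhx3 (3.05 CPM). The sum of 11 inhibitory interneuron markers was 437 CPM against 1067 to 1688 and 1304 to 1831 CPM. That of the excitatory interneuron markers was 97.6 CPM against 223 to 308 and 292 to 390 CPM. In homozygous replicate 1 most of these sums came from Calb2 (428 CPM) and Cck (92.6 CPM). Calb2 was lower there than in the other 7 libraries, and Cck was higher. Of the defining interneuron genes, Slc6a5, Gad1 and Gad2 were at 0 in that library, while Slc17a6 was at 4.52 CPM and Slc32a1 at 0.638 CPM. Heterozygous replicate 1, which entered the estimate of the spread in every edgeR test over the 12 libraries, was like it, with sums of 51490, 345 and 88.7 CPM for the same 3 lists. Results that move with homozygous replicate 1 are given with and without it, and its part in them was not tested otherwise. In material of this kind, fewer cells of a type and less RNA per cell cannot be told apart.

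**Figure D1:**
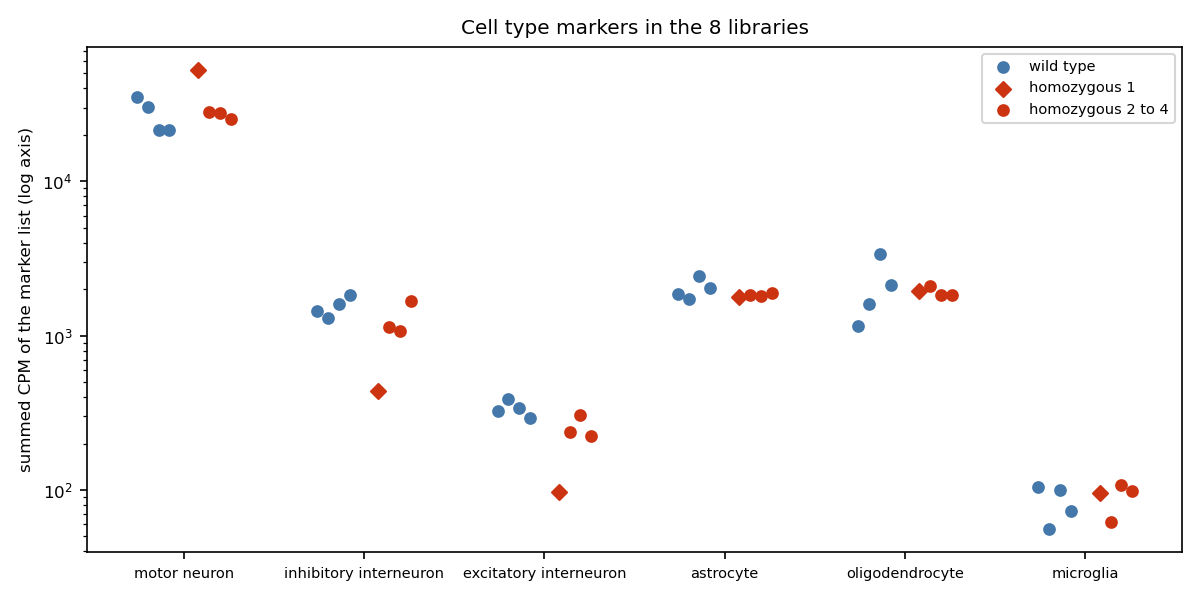
Summed CPM (log axis) of 6 lists of cell type markers, with 1 point for each of the 4 wild type and 4 homozygous libraries. Homozygous replicate 1 (diamond) is highest for motor neuron markers at 52610 CPM and lowest for inhibitory and excitatory interneuron markers at 437 and 97.6 CPM.

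A single gene passed across the transcriptome: Spop, which was lower in homozygotes. Of 16338 genes tested by edgeR's quasi-likelihood test, 1 was past an adjusted p of 0.05 (0.00612%), with 0 higher. DESeq2 called 13 (0.0798%), 5 higher (0.0307%) and 8 lower (0.0491%), and limma-voom called 1. Below an unadjusted p of 0.05 lay 787 genes (4.82%), of which 357 were higher (2.19%) and 430 lower (2.63%). The CPM of the homozygous and wild type libraries did not overlap for 557 genes (3.41%), 210 higher (1.29%) and 347 lower (2.12%). Over all genes tested the median log2 difference was -0.0032, and 50.6% of genes were lower. In the fit without homozygous replicate 1, 785 of the 787 genes had the same sign and 421 still had an unadjusted p below 0.05. The 787 were chosen by p in a fit that holds all the other libraries too, so the agreement in sign follows largely from that choice.

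**Figure D2:**
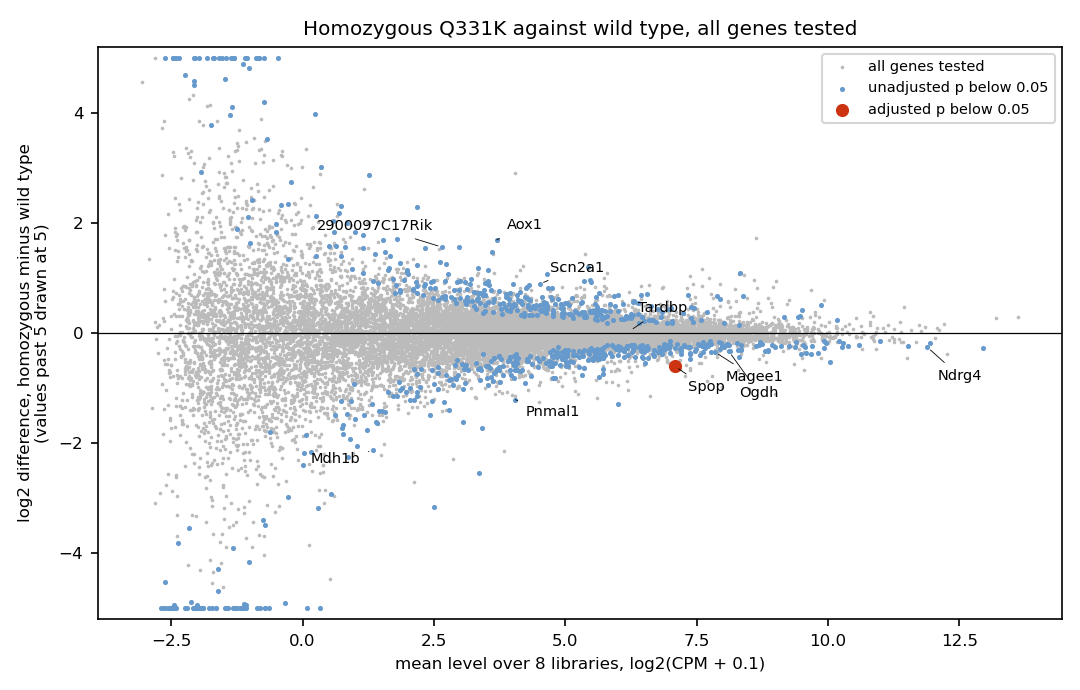
Log2 difference (homozygous minus wild type) of all 16338 genes tested against their mean level over the 8 libraries, as log2(CPM + 0.1), with differences past 5 drawn at 5. The 787 genes with an unadjusted p below 0.05 are blue, and Spop, the 1 gene past the adjusted threshold, is red at a log2 difference of -0.61.

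Spop is the adaptor that carries substrates to the cullin 3 ubiquitin ligase. It stood at 172, 164, 164 and 157 CPM in wild type replicates 1 to 4, and at 109.7, 115, 100.2 and 106 CPM in homozygous replicates 1 to 4. The lowest wild type library was far above the highest homozygous library. The level fell 1.52-fold, from 164 ± 6.22 to 108 ± 6.33 CPM (SD, n = 4 each), with a log2 difference of -0.61 (SE 0.07, 95% interval -0.77 to -0.45, adjusted p = 0.0340 in edgeR). The exact permutation p was 0.0286, the smallest that 4 against 4 libraries can give. The heterozygous libraries lay in the gap, between 123 and 137 CPM. Spop (ENSMUSG00000057522) spans chr11:95414080-95493406 on the plus strand of GRCm38, has no overlapping gene among the entries, and its counts ran from 6282 to 13220. The difference held between -0.57 and -0.64 in 23 other settings, while the call ended in 16 of them. Those included leaving out any 1 of the 12 libraries, and a fit of the 8 libraries alone (adjusted p = 0.402 in edgeR).

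The partners of Spop in the ligase showed no such difference. Cul3, the scaffold, averaged 80.5 ± 6.68 CPM in +/+ and 74.7 ± 9.69 CPM in Q331K/Q331K libraries (log2 difference -0.11, SE 0.15). Rbx1, the RING subunit, averaged 387 ± 6.49 and 405 ± 17.1 CPM (0.06, SE 0.06). Spopl, the paralogue that can replace Spop, averaged 12.8 ± 1.74 and 15.7 ± 3.69 CPM (0.29, SE 0.21). For each of the 3 genes the libraries of the genotypes overlapped. Per kb of exon, the levels in wild type and homozygotes were 52.0 and 34.2 CPM for Spop, 1.25 and 1.53 for Spopl, 16.5 and 15.3 for Cul3, and 85.0 and 88.9 for Rbx1, so Spop remained the far more abundant of the paralogous adaptors.

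Across 44 genes of the cullin 3 family of ligases and their regulators, 21 were higher and 23 lower, with a median of -0.04. Besides Spop, the adaptors Btbd9 (-0.31, SE 0.12), Kbtbd4 (-0.29, SE 0.12) and Klhl9 (-0.30, SE 0.13) were lower at an unadjusted p below 0.05. Senp8, a protease of the NEDD8 system that activates cullins, was higher at that threshold (0.48, SE 0.22). Each of these had overlapping libraries, and with Spop they were 11.4% of the list, against 4.82% of all genes. Of 29 tested genes whose proteins are described as Spop substrates, 15 were higher and 14 lower, with a median of 0.02, and 0 had an unadjusted p below 0.05. These values are of RNA, and substrates of a ligase are set at the level of protein, which was not measured.

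The transcripts of the genes with the smallest p were searched for UG repeats, the sequence TDP-43 binds. The search was made after the values were seen and is a description. The motif was TGTGTGTGTGTG or longer, in either phase, on the sense strand of the longest coding transcript of GENCODE M21, and the reverse complement was counted apart. Of 25 named genes with a transcript, of 27 looked for, 5 held a run: Spop, Magee1, Wwp2, Spock2 and Tmcc3. Over all 14598 tested genes with a transcript the share was 7.34%, and it was 9.74% of 390 genes lower and 6.94% of 317 genes higher at an unadjusted p below 0.05, whose median transcript lengths were 3407 and 2906 bases.

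Spop held 6 runs, all in the first exon, in the 5′ UTR of isoform Spop-201. They lie end to end or a few bases apart in chr11:95414149-95414262, as pieces of a single imperfect repeat. Their number therefore depends on where the search broke that repeat. By that count only 10 of the 14598 genes held at least as many, Spop among them. Of 1774 transcripts within 10% of its length, 5.47% held any. Isoform Spop-202 held 0 and the short Spop-203 held 1, so the runs belong to some annotated isoforms and not to others, and counts per gene do not separate them. The longest run, its neighbour and the single runs of Magee1 and Wwp2, which lie in 3′ UTRs, are shown. They are the repeats in the transcripts with the smallest p. The run is in capitals and the bases on either side are in lower case, which for Spop include bases of the neighbouring runs.
Spop run of 24 bases, chr11:95414171-95414194, plus strand: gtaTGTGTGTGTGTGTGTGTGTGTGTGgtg
Spop run of 21 bases, chr11:95414149-95414169, plus strand: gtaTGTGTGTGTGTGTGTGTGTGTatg
Magee1 run of 14 bases, chrX:105123431-105123444, plus strand: tggGTGTGTGTGTGTGTtgg
Wwp2 run of 17 bases, chr8:107558431-107558447, plus strand: cagGTGTGTGTGTGTGTGTGcac
A match in these letters is not a site shown to be bound, and no binding was measured here.

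Among the other genes with the 12 smallest p on the lower side, which edgeR did not call, several had tight and separate groups. Magee1, of the melanoma antigen family, stood at 272, 251, 252 and 255 CPM in wild type and 206, 199, 186 and 219 CPM in homozygotes (log2 difference -0.34, SE 0.07). Wwp2, a HECT ubiquitin ligase of the Nedd4 family, stood at 47.5, 44.3, 48 and 44.7 CPM in wild type and 29.7, 30.2, 30.6 and 29.4 CPM in homozygotes (-0.62, SE 0.14). The 4 homozygous values of Wwp2 lay close together. Its pseudogene neighbour Rps26-ps1 overlaps it on the other strand. Heterozygous replicates of Wwp2 were at 39, 26, 41.9 and 42.1 CPM, so replicate 2 was below every homozygous library. Spock2, an extracellular proteoglycan, stood at 264, 271, 274 and 281 CPM in wild type and 217, 226, 220.4 and 229 CPM in homozygotes (-0.29, SE 0.07). DESeq2 called Magee1 (adjusted p = 0.0103) and Spock2 (adjusted p = 0.0417) and did not call Wwp2.

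Pnmal1, of the paraneoplastic antigen family, stood at 30.9, 18.4, 26.7 and 16.1 CPM in wild type and 7.40, 10.7, 7.88 and 13.8 CPM in homozygotes (log2 difference -1.21, SE 0.25, adjusted p = 0.0141 in DESeq2). The groups did not overlap, but the wild type libraries spread widely. Ddx20, the helicase Gemin3 of the complex that loads small nuclear ribonucleoproteins with SMN, stood at 16.5, 19.6, 11.6 and 15.1 CPM in wild type and 8.98, 7.2, 9.35 and 9 CPM in homozygotes (-0.86, SE 0.20). Every homozygous library was below every wild type library. Ndrg4, an abundant neuronal member of the N-myc downstream regulated family, stood at 4316, 4108, 3925 and 4142 CPM in wild type against 3280, 3547, 3296 and 3688 CPM in homozygotes (-0.26, SE 0.06). Its 4 homozygous libraries were also lower than each wild type library, on 206549 to 348505 counts per library.

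The Rab GTPase gene Rab36 had means of 26.6 ± 2.94 CPM (wild type) and 18.7 ± 1.28 CPM (homozygous), and Mdh1b, related to malate dehydrogenase, 3.97 ± 0.886 and 0.902 ± 0.345 CPM (SD, n = 4 each). Rps4y2 averaged 63.2 ± 10.5 and 36.1 ± 7.06 CPM, but it lies where the annotation has a ribosomal protein pseudogene within Tmtc1, and is uncertain. Of the 24 genes with the 12 smallest p in each direction, 22 had groups that did not overlap, against 3.41% of all genes, which follows from their choice by small p.

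On the higher side, the sodium channel gene Scn2a1, which encodes Nav1.2, stood at 19.2, 11.4, 16.6 and 16.6 CPM in wild type and 24.3, 29.8, 34.6 and 29.4 CPM in homozygotes (log2 difference 0.89, SE 0.18, adjusted p = 0.932 in edgeR and 0.00991 in DESeq2). The groups did not overlap, and the difference was 0.98 without homozygous replicate 1. Aox1, an aldehyde oxidase, stood at 5.77, 5.73, 5.76 and 7.04 CPM in wild type and 29.1, 16.7, 20.2 and 12.6 CPM in homozygotes (1.69, SE 0.34, adjusted p = 0.00493 in DESeq2). Homozygous replicate 1 was the highest, and the difference without it was 1.45. The unnamed transcript 2900097C17Rik stood at 2.54, 5.26, 2.72 and 2.01 CPM in wild type and 7.90, 7.83, 10.1 and 11.1 CPM in homozygotes (1.56, SE 0.31, adjusted p = 0.00612 in DESeq2). Its heterozygous libraries, at 7.52 to 11.6 CPM, covered the homozygous range.

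Cwc25, a factor of the active spliceosome, stood at 16.4, 8.32, 15.3 and 14.9 CPM in wild type and 26.2, 26.2, 21 and 23.8 CPM in homozygotes (log2 difference 0.82, SE 0.19). Dtymk, the kinase that makes thymidine diphosphate, stood at 33.3, 41.1, 42.0 and 38.8 CPM in wild type and 56.9, 44.5, 52.7 and 50.6 CPM in homozygotes (0.40, SE 0.11). Both genes had separate groups. Cuedc1, a protein with a ubiquitin-binding CUE domain, averaged 7.74 ± 0.568 and 11.9 ± 0.630 CPM (SD, n = 4 each) and was called by DESeq2 (adjusted p = 0.0487), as was the metalloprotease gene Adam12 on 0 counts in wild type and 13, 179, 57 and 0 counts in homozygotes.

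The others of the 12 with the smallest p on the higher side were of low level. Tmcc3, Saal1, Fpgs, which adds glutamates to folate, Cnpy4 and Rnf150 had wild type means of 5.84 to 13.5 CPM and homozygous means of 11.1 to 20.5 CPM. In all of these the groups were separate. Pcdhb20, a protocadherin of a cluster of like genes among which reads can be shared, averaged 6.11 and 13.9 CPM and had overlapping groups. Fpgs overlaps Eng, and its counts can include reads of that gene.

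**Figure D3:**
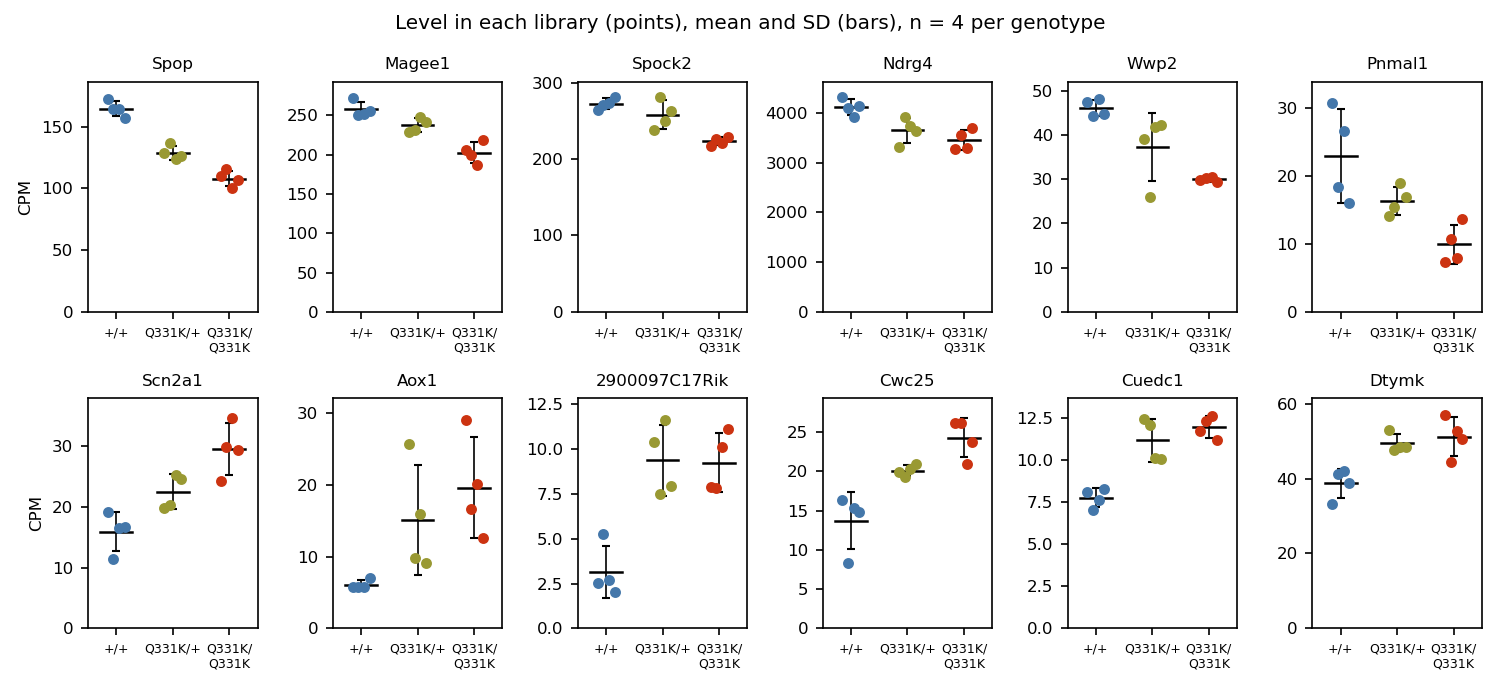
CPM of 12 genes in each library (points) with the mean and SD (bars) of the 4 libraries per genotype, on linear axes from 0. Spop is at 157 to 172 CPM in wild type, 123 to 137 CPM in heterozygotes and 100.2 to 115 CPM in homozygotes, and in all 12 genes the wild type and homozygous points do not overlap.

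Some transcripts were found in all libraries of 1 genotype and in 0 libraries of the other. With at least 10 counts in each library of one group and 0 in all of the other, there were 4 genes lacking in homozygotes and 3 lacking in wild type. Lrrc9, a leucine-rich repeat gene, had 116, 58, 63 and 16 counts in wild type and 0 in homozygotes, at least 80.7-fold lower when the homozygous group is set at a floor of 3 counts in all. Gucy2c, the guanylate cyclase that is the receptor of guanylin, had 100, 292, 94 and 29 counts in wild type (at least 164-fold lower in homozygotes). Ggt1, which splits glutathione outside the cell, had 55 to 107 counts (at least 99.5-fold lower), and Dkk1, a secreted inhibitor of Wnt signals, had 30 to 82 counts (at least 60.6-fold lower). DESeq2 called Lrrc9 (adjusted p = 0.00171) and Gucy2c (adjusted p = 0.00493).

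In the other direction, Car13, a carbonic anhydrase, had 15, 18, 43 and 24 counts in homozygotes and 0 in wild type (at least 34.8-fold higher). Slc47a2, an exporter of organic cations, had 74, 14, 16 and 12 counts (at least 40.4-fold higher), and 4933427G17Rik had 23 to 82 counts (at least 72.5-fold higher). Heterozygous libraries were mixed for these genes. Dkk1, for example, had 0, 0, 130 and 38 counts in them, and Slc47a2 had 108, 27, 11 and 0. The prostaglandin receptor gene Ptger3 was at 0 in all homozygotes too, but also in 1 wild type library (88, 0, 41 and 30 counts). The kits amplify by PCR without molecular identifiers, so the floors cover counting error only.

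Genes of the citric acid cycle and of glycolysis leaned to lower levels in homozygotes, by small amounts. Of 22 genes of the citric acid cycle, 18 were lower, against 50.6% of all genes, with a median log2 difference of -0.13. Those with an unadjusted p below 0.05 numbered 4, all lower (18.2% of the list, against 2.63% of all genes lower), and the median without homozygous replicate 1 was the same, with 20 of 22 lower. Taking in each library the median deviation of the 22 genes from their wild type mean, wild type replicates 1 to 4 were at -0.022, -9.87e-05, 0.031 and 0.038, and homozygous replicates at -0.046, -0.11, -0.21 and -0.097 log2 CPM. The homozygous libraries were all below the wild type ones, with replicate 1 the nearest to them and replicate 3 the farthest. Heterozygous libraries were at -0.14, -0.046, -0.14 and -0.064.

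Ogdh, the first subunit of the 2-oxoglutarate dehydrogenase complex, stood at 338, 288, 318 and 291 CPM in wild type and 209, 243, 258 and 269.6 CPM in homozygotes (-0.33, SE 0.11). Sucla2, of the succinyl-CoA ligase that follows it in the cycle, stood at 516, 554, 511 and 533 CPM in wild type and 476, 478, 404 and 461 CPM in homozygotes (-0.22, SE 0.07). For both genes every homozygous library was below every wild type library. The isocitrate dehydrogenase subunit Idh3a was at -0.33 (SE 0.14) with separate groups, and Sdha, of succinate dehydrogenase, at -0.23 (SE 0.10), with 1 homozygous library at 598 CPM inside the narrow wild type range of 588 to 599 CPM. Each had an adjusted p of 0.986 in edgeR, so none passed singly.

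In glycolysis 15 of 19 genes were lower, with a median of -0.13 (-0.10 without homozygous replicate 1). Pkm, the pyruvate kinase, stood at 4393, 3943, 4055 and 4342 CPM in wild type and 3646, 3786, 3375 and 3906 CPM in homozygotes (-0.19, SE 0.06). The enolase Eno1 was at -0.53 (SE 0.24), with 574 CPM in homozygous replicate 1 and 918.8 to 1018 CPM in the others against 1119 to 1349 CPM in wild type. The neuronal enolase Eno2 was at -0.15 (SE 0.06), with overlapping groups. By library, the glycolysis medians of wild type (-0.075 to 0.069) and homozygotes (-0.22 to -0.069) overlapped.

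The nuclear-encoded respiratory chain had a far smaller median difference than the citric acid cycle and glycolysis lists. Of 66 genes 43 were lower, with a median of -0.01, and 36 were lower without homozygous replicate 1. An unadjusted p below 0.05 was found for 5, and all 5 were lower (7.58% of the list, against 2.63% of all genes lower). They included the ATP synthase genes Atp5l, Atp5a1 and Atp5b, and Uqcrc1 of complex III. Atp5a1 stood at 1639, 1669, 1634 and 1696 CPM in wild type and 1284, 1487, 1372 and 1538 CPM in homozygotes (-0.22, SE 0.08). Atp5l stood at 156, 182, 201 and 204 CPM in wild type and 148, 131, 155 and 143 CPM in homozygotes (-0.36, SE 0.10). Both had groups that did not overlap, narrowly for Atp5l. The mitochondrially encoded genes had a median of -0.30, with 9 of 13 lower, and without homozygous replicate 1 a median of -0.27, with 12 of 13 lower. In the full comparison 0 of the 13 had an unadjusted p below 0.05, and the groups of all 13 overlapped. Their spread was uneven: mt-Co3 ran from 5.28 to 1427 CPM within wild type and from 6.18 to 914 CPM within homozygotes, while mt-Co1, the member at the list median, averaged 2119 ± 239 and 1725 ± 118 CPM (SD, n = 4 each).

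**Figure D4:**
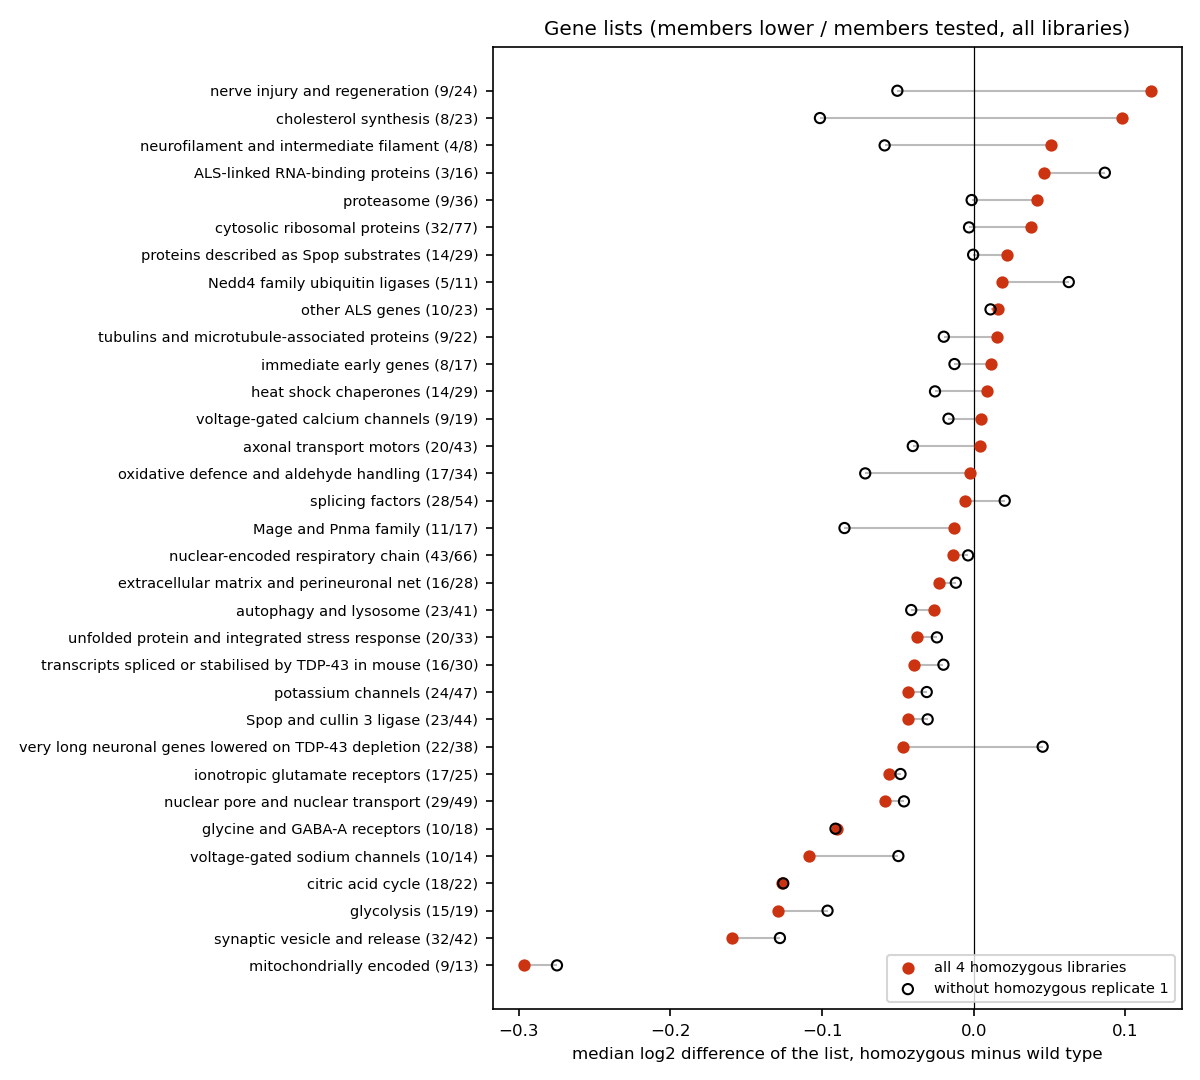
Median log2 difference (homozygous minus wild type) of 33 pathway lists, with all 4 homozygous libraries (filled) and without homozygous replicate 1 (open), and in brackets the number of members lower and tested. Glycolysis, the citric acid cycle and synaptic vesicle genes lie between -0.10 and -0.16 under both, while several lists above 0 move to or below 0 without that library.

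Among the pathway lists of nuclear genes, cell type markers aside, synaptic vesicle and release genes had the median farthest from 0. Of 42 genes 32 were lower, with a median of -0.16 (-0.13 and 31 of 42 without homozygous replicate 1). At an unadjusted p below 0.05 there were 6 lower and 1 higher, against 2.63% and 2.19% of all genes. Groups did not overlap for 5 of the 42, all lower, against 2.12% of all genes not overlapping and lower. Nsf, the ATPase that takes apart SNARE complexes after fusion, stood at 1346, 1375, 1307 and 1348 CPM in wild type and 1091, 1249, 1010 and 1135 CPM in homozygotes (-0.26, SE 0.07). Nsf was lower in each homozygous library than in each wild type library.

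The rest of this group with an unadjusted p below 0.05 are named after their values were seen. Syp, the vesicle membrane protein synaptophysin, had means of 1333 ± 23.7 CPM (wild type) and 1176 ± 50.4 CPM (homozygous), and Snap25, a SNARE protein, 8708 ± 1129 and 7203 ± 645 CPM (SD, n = 4 each). Dnm1, the dynamin of vesicle retrieval, was at -0.37 (SE 0.15) and Unc13a, which primes vesicles and is a TDP-43 splicing target in human neurons, at -0.31 (SE 0.14), both with overlapping groups. Sncg, gamma-synuclein, went the other way at 0.50 (SE 0.21), with 1558 CPM in homozygous replicate 1 and 856 to 1069 CPM in the others against 623 to 1014 CPM in wild type. By library, the list's median deviation was -0.015 to 0.058 in wild type, -0.34 in homozygous replicate 1 and -0.17 to -0.087 in homozygous replicates 2 to 4, so the groups did not overlap with or without replicate 1. The interneuron markers given above were lowest in that same library, and interneurons also express these genes. The part of interneuron RNA in this difference was not tested.

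**Figure D5:**
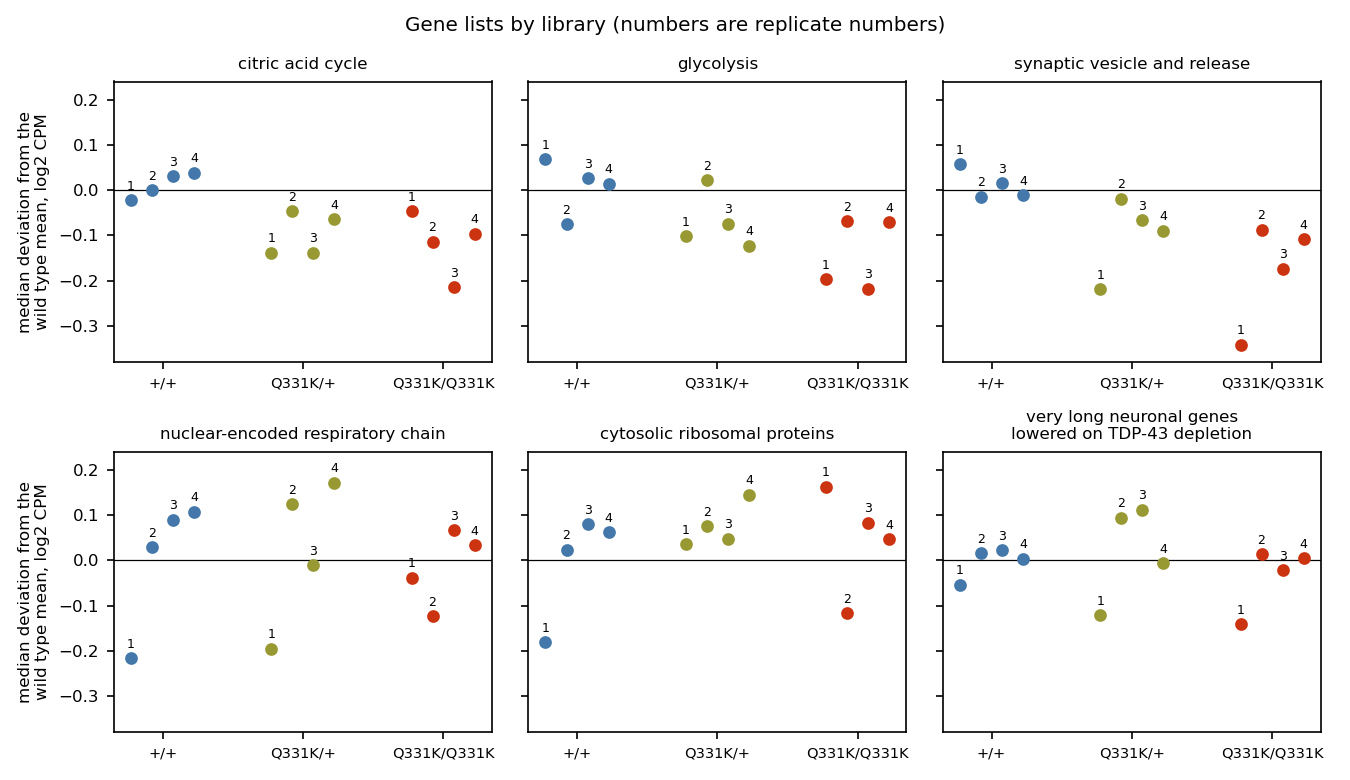
Median deviation of 6 gene lists from their wild type mean (log2 CPM) in each of the 12 libraries, with replicate numbers above the points. For the citric acid cycle and synaptic vesicle lists the 4 homozygous libraries lie below the 4 wild type libraries, and for the ribosomal and very long gene lists they overlap.

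Of the ion channels that set firing, the voltage-gated sodium channel genes had 10 of 14 lower with a median of -0.11, which was -0.05 without homozygous replicate 1, so Scn2a1 ran against its list. Fgf13, which binds sodium channels inside the cell, stood at 38.6, 44.7, 39.9 and 35.8 CPM in wild type and 16.6, 31.9, 32.2 and 24.7 CPM in homozygotes (-0.59, SE 0.19, and -0.42 without replicate 1). Every homozygous library was lower. Potassium channel genes were balanced, with 24 of 47 lower, and Kcnq5, at 17.1, 9.24, 5.92 and 2.26 CPM in homozygotes and 2.46 to 4.37 CPM in wild type, had its highest value in replicate 1. Among calcium channels 9 of 19 were lower, with Cacna1e at -1.14 (SE 0.49) and Cacna1g at 0.89 (SE 0.40). Ionotropic glutamate receptor genes had 17 of 25 lower with a median of -0.06. The 2 with an unadjusted p below 0.05 were higher (8% of the list, against 2.19% of all genes higher). The AMPA receptor auxiliary gene Cnih2 (0.61, SE 0.28) was among them.

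Axonal transport motors were balanced, with 20 of 43 lower and a median of 0.00 (-0.04 without homozygous replicate 1, with 27 of 43 lower). The 5 with an unadjusted p below 0.05 were all lower (11.6% of the list, against 2.63% of all genes lower). Kif21b, a kinesin of neurons, stood at 10.8, 15.1, 14.2 and 20.6 CPM in wild type and 8.19, 6.96, 9.24 and 10.5 CPM in homozygotes (-0.80, SE 0.25), with separate groups. Kif3c and Kifap3, motor and adaptor of kinesin-2, were at -0.27 (SE 0.10) and -0.21 (SE 0.08), Trak1, which links mitochondria to motors, at -0.33 (SE 0.13), and the kinesin light chain Klc2 at -0.15 (SE 0.07). Neurofilament and intermediate filament genes had a median of 0.05, which was -0.06 without homozygous replicate 1, where their summed level was 47200 CPM against 23970 to 26680 CPM in the other homozygotes.

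Transcripts that depend on TDP-43 were examined as lists drawn from general knowledge of its loss. Of 30 genes spliced or stabilised by TDP-43 in mouse cells, 16 were lower, with a median of -0.04, and 4 had an unadjusted p below 0.05 (13.3%, against 4.82% of all genes). Adnp2, a zinc finger protein, stood at 16.1, 9.47, 16.9 and 10.5 CPM in wild type and 6.26, 8.11, 6.85 and 8.10 CPM in homozygotes (-0.85, SE 0.24). Mib1, a ubiquitin ligase of Notch signalling, stood at 20.4, 27.5, 23.4 and 28.9 CPM in wild type and 35.1, 35.3, 38.9 and 34.3 CPM in homozygotes (0.52, SE 0.18). The groups of both were separate, in opposite directions. Tsn, a nucleic acid-binding protein, was at -0.33 (SE 0.12) and the spectrin gene Spnb4 of the axon initial segment at -0.52 (SE 0.21), with overlapping groups. Gene counts do not show exon use, so splicing itself was not analysed here.

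Very long neuronal genes, known to be lowered when TDP-43 is depleted, did not lean lower once homozygous replicate 1 was set aside. Of 38 entries, 22 were lower with a median of -0.05, and without that library 18 were lower with a median of 0.05. The 3 with an unadjusted p below 0.05 (7.9% of the list, against 4.82% of all genes) pointed both ways. Dpp6, an auxiliary subunit of potassium channels, was at -0.30 (SE 0.10), and the receptor phosphatase Ptprd was at 0.30 (SE 0.12). Over all genes grouped by their span in the genome, medians ran only from -0.02 for 4269 genes of 30 to 100 kb to 0.02 for 498 genes of 300 kb or more. Genes under 10 kb were at 0.01.

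ALS-linked RNA-binding proteins had 13 of 16 genes higher, with a median of 0.05 (15 of 16 and 0.09 without homozygous replicate 1), and 0 had an unadjusted p below 0.05. The other ALS genes had 13 of 23 higher, with a median of 0.02. Splicing factors split 26 higher to 28 lower, with a median of -0.01. Nuclear pore and transport genes had 29 of 49 lower, with a median of -0.06, and 6 with an unadjusted p below 0.05 (12.2% against 4.82%), 3 in each direction. Nup54, of the central channel, was at 0.34 (SE 0.13), and the import receptor Ipo7 at means of 19.7 ± 2.03 CPM (wild type) and 14.3 ± 2.05 CPM (homozygous; SD, n = 4 each), with separate groups.

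Protein quality control gave no common direction. The unfolded protein response list had 20 of 33 lower with a median of -0.04, and Hyou1, a chaperone of the endoplasmic reticulum, was at -0.69 (SE 0.26). Proteasome genes had 27 of 36 higher with a median of 0.04, but 18 of 36 and a median of -0.0013 without homozygous replicate 1. Autophagy and lysosome genes had 23 of 41 lower, with the proton pump subunit Atp6v1b2 at -0.23 (SE 0.08) and the lysosomal channel Mcoln1 at -0.21 (SE 0.09). Cytosolic ribosomal protein genes had 45 of 77 higher with a median of 0.04, and 35 of 77 and -0.0031 without that library. In the oxidative defence list 17 were higher, Aox1 among them, and 17 lower, but 11 and 23 without that library, with a median of -0.07, and Gstp1 was at 0.62 (SE 0.27) with 457 CPM in homozygous replicate 1 and 220.2 to 256 CPM in the others.

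Other lists were as even. Immediate early genes had 9 of 17 higher with a median of 0.01, though Nr4a2 stood at 3.10, 5.47, 4.71 and 2.34 CPM in wild type and 1.30, 0.677, 1.47 and 1.59 CPM in homozygotes (-1.63, SE 0.59) with separate groups. The cholesterol synthesis list was at 0.10 with all libraries and -0.10 without homozygous replicate 1, and the nerve injury list at 0.12 and -0.05. Extracellular matrix genes had 16 of 28 lower, and Agrn, the neural organiser of the neuromuscular synapse, stood at 49.3, 49.1, 40.5 and 45.8 CPM in wild type and 76.5, 62.5, 60.2 and 45.6 CPM in homozygotes (0.41, SE 0.15), overlapping through replicate 4.

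The largest differences among genes with a mean of 50 CPM or more moved with homozygous replicate 1. Calca, the precursor of calcitonin gene-related peptide, stood at 197, 373, 40.7 and 125 CPM in wild type and 1465, 298, 498 and 165 CPM in homozygotes (log2 difference 1.72, SE 0.81, and 0.81 without replicate 1). Hspb1, a small heat shock protein, stood at 356, 233, 108 and 129 CPM in wild type and 796, 299, 354 and 302 CPM in homozygotes (1.08, SE 0.45, and 0.63 without it). In both genes some of homozygous replicates 2 to 4 lay inside the wild type range. Rab3b, Gna14 and Pmp22 were at 1.17, 1.08 and 1.07, and at 0.56, 0.77 and 0.54 without that library. On the lower side Serpinf1, a secreted neurotrophic factor, stood at 71.1, 112, 118 and 64.4 CPM in wild type and 9.48, 47.0, 42.8 and 50.9 CPM in homozygotes (-1.28, SE 0.44, and -0.95 without replicate 1). It was lower in every homozygous library. Cartpt, a neuropeptide precursor, ran from 19.3 to 276 CPM within wild type, and the mitochondrially encoded mt-Co3, mt-Atp6 and mt-Atp8 are neighbours, of which mt-Atp6 overlaps both of the others, and spread as widely within each genotype as given for mt-Co3 above.

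Markers of the captured cells moved with replicate 1 as well. Of 18 motor neuron markers tested, 14 were higher, with a median of 0.36, and 10 were higher with a median of 0.04 without that library. All 11 inhibitory interneuron markers were lower with it (median -0.89) and without it (median -0.48). The excitatory interneuron markers were mixed, with 5 of 9 lower and a median of -0.52, and 6 lower with a median of -0.11 without it. Gad1, which makes GABA, stood at 8.14, 13.9, 25.3 and 22.3 CPM in wild type and 0, 4.71, 1.64 and 5.59 CPM in homozygotes (-2.54, SE 1.07), with separate groups and a neighbour, 1500002O10Rik, overlapping on the other strand. The transcription factor gene Tfap2b was likewise separate, at 0.432 to 1.43 and 0 to 0.223 CPM. Astrocyte markers had 13 of 16 lower with a median of -0.28 (-0.25 without homozygous replicate 1, but 0.09 without wild type replicate 3), although S100b, which motor neurons also express, was at 0.31 (SE 0.14). Oligodendrocyte markers had 7 of 16 lower and microglia markers 5 of 14 lower, with medians that changed sign on leaving out single libraries (-0.22 to 0.26 and -0.04 to 0.36). No marker passed the adjusted threshold in edgeR.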

How the data were processed

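Polyadenylated RNA of laser-captured lower motor neurons was sequenced in 12 libraries, and the authors deposited an unnormalized count for each gene and library. Per the submitters' processing notes, Trim Galore 0.4.3 and HISAT2 2.0.5 were used, with mouse build GRCm38. Not given in the sources used here are the program that counted reads, its annotation and whether it used strand. The labels' protocols name PicoPure extraction, SMART-seq v4 amplification and Nextera XT library preparation, which add no molecular identifiers and keep no strand. The table held 25965 entries, of which 20011 had a count.

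Genes were kept with filterByExpr, scaled by TMM (factors 0.94 to 1.03) and tested with the quasi-likelihood test of edgeR 4.0.16 in R 4.3.3 over all 12 libraries, with genotype as the only term and Benjamini-Hochberg adjusted p below 0.05 over 16338 genes. The biological coefficient of variation was 0.57. The fits were tested on simulated data, in which DESeq2, unlike edgeR and limma-voom, also called genes that had not been changed. Simulated counts were drawn independently for each gene and library. They held no shift in cell content such as that of homozygous replicate 1, so this result need not carry over to these data. How many of the changed genes each tool recovered is not reported here, and few false calls can come with few true ones. No libraries of 1 genotype agreed within sampling noise (chi-square per degree of freedom at least 62.8 over 18 pairs). Alternatives were limma-voom with library quality weights (limma 3.58.1), named limma-voom throughout, and DESeq2 1.42.0. Further ones were other size factors, filters and dispersion settings, a replicate block, the 8 libraries alone and leaving out libraries.

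The genotypes compared and the gene lists were chosen with earlier results of these data known, and lists were given no test. Named were Tardbp, the genes called by edgeR or DESeq2, the 12 smallest p and the 5 largest differences at 50 CPM or more in each direction, genes at 0 in 1 genotype with at least 10 counts in each library of the other, up to 2 members of each list by p, and, for cell types, the 2 markers with the highest level. Some genes that fall under this rule are not reported here. Genes named beyond it were chosen after their values were seen. These are other members of the citric acid cycle, glycolysis, respiratory chain, transport motor, cullin 3, TDP-43, potassium channel, long gene, autophagy and synaptic lists below an unadjusted p of 0.05, and the defining interneuron genes.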

Additional observations from a re-analysis of the deposited data

Results flagged for a closer look

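In 12 of 204 groups of 4 libraries, over the genes named, a single library lay far from the other 3 (a gap above 0.829 of the group's range). About 1 group in 20 does so by chance. Of these, 4 were homozygous replicate 1. There Hspb1 was at 795.6 CPM (the others 299 to 354), Pmp22, a myelin protein, at 823.5 CPM (271 to 313), Gstp1 at 457.2 CPM (220.2 to 256) and Slc47a2 at 1.073 CPM (0.158 to 0.255). Homozygous replicate 3 was high for mt-Co1 at 1902 CPM (1662 to 1670) and low for Srsf6, a splicing factor, at 69.24 CPM (86.0 to 88.5).

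In wild type, replicate 1 was low for Tardbp at 62.32 CPM (76.1 to 78.7) and for Snap25 at 7031 CPM (9058 to 9449). Replicate 2 was high for Pcdhb20 at 9.151 CPM (4.77 to 5.44) and low for Mcoln1 at 188.9 CPM (203 to 205). Replicate 4 was high for Aox1 at 7.036 CPM (5.73 to 5.77) and for Trak1 at 63.03 CPM (56.0 to 56.9).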

How the results depend on the processing

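The Spop difference kept its sign in all 23 other settings. The Spop call held in limma-voom (adjusted p = 0.0146), DESeq2, with DESeq2 size factors, a stricter filter, and robust dispersions, and in edgeR with a replicate block (log2 difference -0.6087, adjusted p = 0.0486, 1 gene called). The block raised the genes with an unadjusted p below 0.05 from 787 to 1431, and limma-voom to 1185, so the shares given beside the lists hold for the fit without it. It ended, leaving 0 genes called, with no filter (-0.6071), the 8 libraries alone (-0.6067), bias-adjusted dispersions (-0.6069), and heterozygous and homozygous replicates 1 left out together (-0.6121). The dispersion settings were chosen after seeing the data. Leaving out each of the 12 libraries in turn gave -0.6405 to -0.5718 for Spop, with 0 genes called each time, and -0.028 (without wild type replicate 1) to 0.0734 for Tardbp. In limma-voom Tardbp was at -0.0049. DESeq2 called 13 genes, 5 higher and 8 lower. The causes were not tested.

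Wild type and homozygous libraries of the same number deviated together weakly. The r was 0.27, 0.09, 0.19 and 0.08 for replicates 1 to 4, the first being the largest of all pairs. Pairs of unlike number ran from -0.29 to 0.22. Wild type replicate 4 correlated best with homozygous replicate 3 (0.22). The number was not taken as a pairing in the main fit. Heterozygous libraries were not in this check, and whether the number marks a batch was not tested. For 100 other genes named in the text, 2272 of 2284 alternative values kept sign and call, 0 turned, and 12 passed in DESeq2 alone. Most of these genes were chosen by small p, and 0 were called in the main fit. The agreement follows largely from that choice. Genes under the naming rule that are not reported here were not counted, and some of them turned sign without homozygous replicate 1. Of 42 list medians, 12 stayed below 0 in all settings, among them those of synaptic vesicle (-0.19 to -0.12), glycolysis (-0.15 to -0.09), citric acid cycle genes (-0.16 to -0.10) and of mitochondrially encoded genes (-0.35 to -0.24), while splicing factors turned sign in 8, and immediate early and oxidative defence genes in 12 each. Depth was not limiting for most named genes, and the spread between libraries was.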

Other observations

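Of 18 glycine and GABA-A receptor genes, through which inhibitory neurons act on motor neurons, 10 were lower, with a median log2 difference of -0.09 with or without homozygous replicate 1, and 0 had an unadjusted p below 0.05. Tubulins and microtubule-associated proteins had 13 of 22 higher, with a median of 0.02 (-0.02 without that library), and heat shock chaperones 15 of 29 higher, with a median of 0.01 (-0.03). The Nedd4 family of ubiquitin ligases had 6 of 11 higher, and Wwp2 was the 1 member with an unadjusted p below 0.05 (9.09% of the list). The Mage and Pnma family had 11 of 17 lower, with Magee1 and Pnmal1 the members below that p (11.8% of the list). The share of all genes below that p was 4.82%. Oligodendrocyte precursor markers had 6 of 8 higher, with a median of 0.47, on summed levels of 51.6 to 71.7 CPM in homozygotes and 44.1 to 88.4 CPM in wild type that overlapped.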
